A study of Mus musculus with 7 samples.

Results

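The genes described are 35 chaperones, folding enzymes, degradation factors and stress sensors of the endoplasmic reticulum (ER), taken by symbol from the 24047 genes of the count table. They were followed in SMB21 cells, a neurosphere culture derived from a medulloblastoma of a Ptch mutant mouse (strain label Ptch1tm1Mps/J, age given as adult), in which loss of the receptor Ptch1 leaves Hedgehog signalling active. Ofd1 CRISPR cells (3 libraries) carried a lentiCRISPR vector against Ofd1, a basal body gene, and Kif3a CRISPR cells (2 libraries) carried one against Kif3a, which encodes a kinesin-2 motor subunit. GFP control cells (2 libraries here, of 3 replicates in the series text) carried a guide against GFP, so all groups share the Ptch mutation, the virus and Cas9. RNA was taken 2 weeks after infection for all 7 libraries. Whether clones or pools of infected cells were sequenced is not given in the sources used here. The labels call the replicates biological without naming separate infections, so p-values measure the spread between these libraries.

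The unfolded protein response adjusts the ER to its load of unfolded protein. When the chaperone Hspa5 (BiP) is drawn to unfolded clients, IRE1 (Ern1) splices Xbp1 mRNA into the message of an active transcription factor, ATF6 moves to the Golgi and is cut by proteases to release its own transcription factor domain, and PERK (Eif2ak3) phosphorylates eIF2alpha, which slows translation and favours that of ATF4. ATF6 and XBP1 induce chaperones, disulfide isomerases and ER-associated degradation (ERAD), the route by which misfolded proteins leave the ER for the proteasome.

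ATF6 and XBP1 reach many of these genes through short promoter elements, and the elements found are shown because they set the genes with an ATF6-type element beside those without one. RefSeq promoter windows on GRCm38.p6, from 250 bases before to 50 after the transcription start, were held for 29 of the 35 genes. The 6 without a window were Hyou1, Hspa13, Sil1, Manf, Derl1 and Atf6. Both strands were searched for the ER stress response element (ERSE), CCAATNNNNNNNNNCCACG, which ATF6 binds together with the CCAAT factor NF-Y. It was found in 9 of the 29 (31.0%), namely Hspa5, Hsp90b1, Calr, Canx, Dnajc3, Creld2, Pdia6, Syvn1 and Derl3, and in 37 of 27025 genes with a window (0.137%). ERSE-II, ATTGGNCCACG, was found in Dnajb11 and Herpud1, 2 of 29 (6.9%), and in 0.0444% of all genes. The core of the unfolded protein response element, TGACGTG, was found in Hspa5 and Txndc5, 2 of 29 (6.9%), and in 2.22% of all genes. An ATF4 composite site, TGATGNAAN, added after the expression values had been seen, was found in Herpud1 and Txndc5 (6.9%) and in 4.5% of all genes. Counted from the transcription start, and with coordinates of the whole printed stretch, the ERSE of Hspa5 begins at -65 within chr2:34772005-34772063 (plus strand), that of Pdia6 at -98 within chr12:17266471-17266529 (plus strand), and that of Calr at -162 within chr8:84847055-84847113 (minus strand). Hsp90b1 held 1 ERSE on each strand, at -212 within chr10:86705618-86705676 (minus strand) and at -107 within chr10:86705513-86705571 (minus strand). In Herpud1, the only gene of the 29 with both of these, the ERSE-II begins at -52 within chr8:94386357-94386407 (plus strand) and the ATF4 composite match at -113 within chr8:94386296-94386344 (plus strand). None of these matches overlapped another. Each line reads 5′ to 3′ along the gene's own strand with 20 bases on either side, and capitals mark the match. In Calr, the second Hsp90b1 line and the second Herpud1 line the match lies on the opposite strand.
Hspa5: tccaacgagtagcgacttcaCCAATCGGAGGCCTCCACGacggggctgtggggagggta
Pdia6: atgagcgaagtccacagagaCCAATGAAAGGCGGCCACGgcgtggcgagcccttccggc
Calr: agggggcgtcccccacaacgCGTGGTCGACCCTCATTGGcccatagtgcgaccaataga
Hsp90b1: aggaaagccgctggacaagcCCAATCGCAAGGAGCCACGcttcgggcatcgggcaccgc
Hsp90b1: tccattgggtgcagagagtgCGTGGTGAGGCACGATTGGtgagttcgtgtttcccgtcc
Herpud1: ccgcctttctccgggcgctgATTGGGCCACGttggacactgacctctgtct
Herpud1: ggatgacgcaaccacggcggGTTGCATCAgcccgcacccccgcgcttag

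Libraries held 17961767 to 23022701 counts, and the 35 genes together took 0.398% to 0.432% of each. Markers of granule neuron progenitors and Hedgehog medulloblastoma were present in every library, with summed levels of 3503 to 3938 CPM (counts scaled to a common library total with TMM factors) in Ofd1 CRISPR, 3684 to 3847 in Kif3a CRISPR and 3440 to 3532 in GFP control cells. These sums hide opposite differences. Of the 10 markers, 60% were called in each CRISPR group against GFP control, where 14.9% (Ofd1 CRISPR) and 20.1% (Kif3a CRISPR) of all tested genes were. Atoh1, Barhl1 and Pax6 were higher and Mycn, Gli1 and Gli2 lower in both. Single libraries are named GFP-1, Ofd1-1, Kif3a-1 and so on, by guide and replicate number. The targeted genes stood at 90.6, 93.1 and 97.4 CPM in Ofd1 CRISPR, 73.9 and 60.5 CPM in Kif3a CRISPR and 104 and 104 CPM in GFP control cells for Kif3a, and at 21.0, 20.03 and 22.0 CPM in Ofd1 CRISPR, 31.7 and 29.0 CPM in Kif3a CRISPR and 22.6 and 23.1 CPM in GFP control cells for Ofd1. In Kif3a CRISPR cells the log2 fold change of Kif3a was -0.63 (SE 0.0929, adjusted p = 0.000854), while Ofd1 in Ofd1 CRISPR cells differed by -0.12 (SE 0.0910, adjusted p = 0.398), so a lower transcript level was not detected there. Ofd1 was called higher in Kif3a CRISPR cells, at 0.41 (SE 0.0975, adjusted p = 0.0126; lost without GFP-1 at 0.103, GFP-2 at 0.0639 or Kif3a-1 at 0.114), and lower in Ofd1 CRISPR than in Kif3a CRISPR cells, at -0.53 (SE 0.0887, adjusted p = 0.0399), a call lost without GFP-1 (0.0946) or GFP-2 (0.0889), Ofd1-2 (0.128), and Kif3a-1 (0.924) or Kif3a-2 (0.123), and with only the compared groups (0.0962). GFP-1 stood apart by its myeloid transcripts: the 15 listed markers, of which Cx3cr1 was at 0 in every library, summed to 3.44 to 4.88 CPM in Ofd1 CRISPR, 3.37 to 3.67 in Kif3a CRISPR, and 32.2 and 2.96 in GFP-1 and GFP-2. Results are therefore given with and without that library. Over all genes GFP-1 and GFP-2 were the closest pair, with a chi-square per degree of freedom of 3.998, where the other pairs within a group had 7.19 to 13.9, the highest between Ofd1-1 and Ofd1-3. Pairs of an Ofd1 and a Kif3a CRISPR library had 5.40 to 14.4, so some were closer than libraries of the same CRISPR group. Pairs of a CRISPR and a GFP control library had 17.2 to 49.2. Other marker sums differed between the groups. Fibroblast markers (8 genes) summed to 112 to 213 CPM in Ofd1 CRISPR, 117 to 166 in Kif3a CRISPR and 311 to 325 in GFP control cells, nearly all of it from Pdgfra and Fbln1, while the collagen gene Col1a1 stayed at or below 0.85 CPM. Plasma and B cell markers (9 genes), which mark professional secretory cells, summed to 35.9 to 44.6, 32.4 to 38.5 and 51.2 to 57.4 CPM in Ofd1 CRISPR, Kif3a CRISPR and GFP control cells, most of it from Sdc1. The nuclear RNA Neat1, a sign of RNA composition, differed by -0.37 in Ofd1 CRISPR and -0.58 in Kif3a CRISPR (adjusted p = 0.0259 and 0.00315). Ofd1-1 had the highest sum of the 3 transcripts listed as signs of RNA quality, with 363, 216 and 181 CPM in Ofd1 CRISPR, 259 and 288 in Kif3a CRISPR and 244 and 258 in GFP control cells. It also had the highest sum of 6 astrocyte markers, with 353, 207 and 267 CPM in Ofd1 CRISPR, 272 and 229 in Kif3a CRISPR and 241 and 243 in GFP control cells. The part of these differences in the results on ER genes was not tested.

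Several chaperones and disulfide isomerases were among the more abundant messages of these cells. Per kilobase of exon, averaged over the 7 libraries, the lectin chaperone Calr (calreticulin) had the highest level, 173 CPM, above 98.1% of tested genes with a known length. Hsp90b1, the Hsp90 of the ER (GRP94), stood at 154 CPM per kilobase, the disulfide isomerases Pdia6 and Pdia3 at 124 and 117, and Hspa5 at 88.8. The sensors were far lower than these: Atf6 stood at 19.0, Xbp1 at 15.9, Eif2ak3 at 8.19 and Ern1 at 1.47 CPM per kilobase, the lowest of the 34 genes tested. Some chaperones and co-chaperones were in the same range, with Hspa13 at 19.8, Dnajc3 at 9.65, Sil1 at 9.51 and Dnajb9 at 6.08 CPM per kilobase. Derl3, a derlin of secretory tissues, had 0 counts in all 7 libraries, which allows a level of up to 0.130 to 0.167 CPM by counting error alone, and it was not tested. Summed over all 35 genes, the level was 3929 to 4155 CPM in Ofd1 CRISPR, 4155 to 4297 CPM in Kif3a CRISPR, and 4304 and 4307 CPM in GFP control cells.

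**Figure D1:**
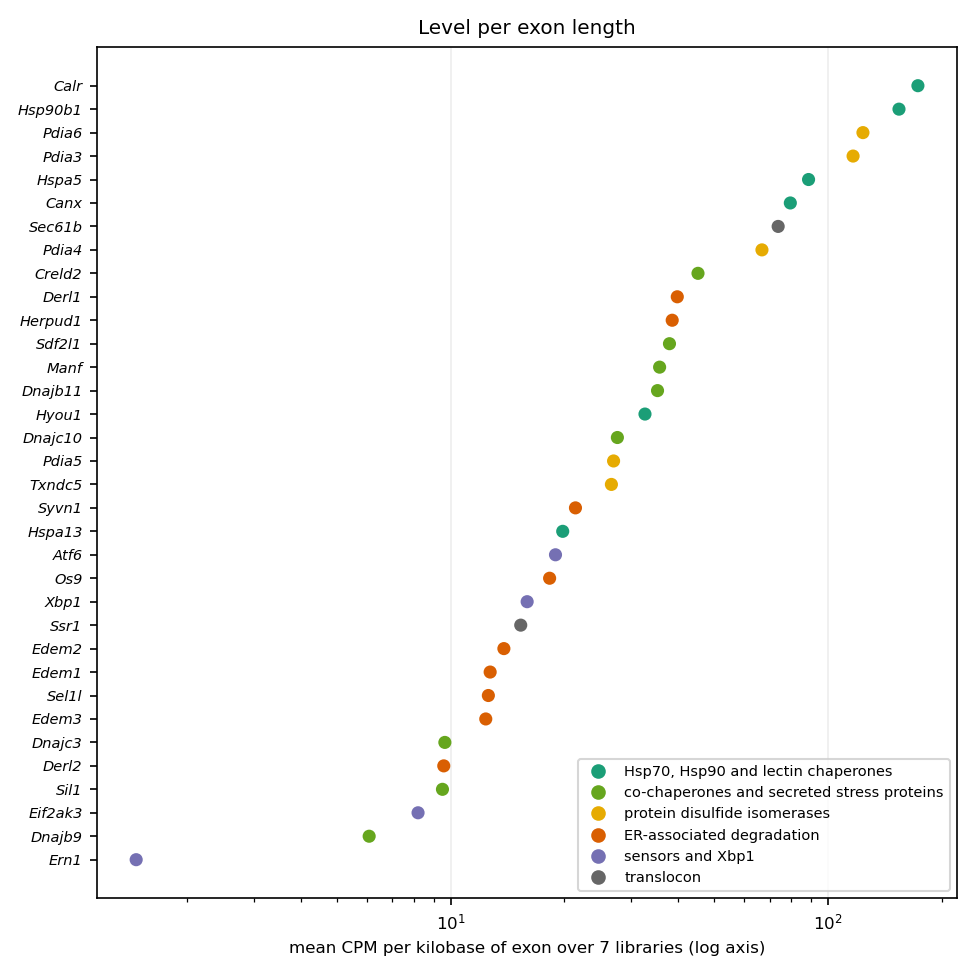
Mean level of each of the 34 tested genes in CPM per kilobase of exon over 7 libraries, on a log axis, coloured by role. Calr, Hsp90b1, Pdia6 and Pdia3 lie above 100, and the sensors Atf6, Xbp1, Eif2ak3 and Ern1 lie below 20.

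Against GFP control, most of these genes were not called, and the genes that were went in both directions. Calls rest on edgeR's quasi-likelihood test with Benjamini-Hochberg adjustment over 12875 genes, at an adjusted p under 0.05. In Ofd1 CRISPR cells 6 of 34 were called (17.6%, where 14.9% of all tested genes were called), 2 higher (5.88%, against 6.79% of all genes) and 4 lower (11.8%, against 8.09%). In Kif3a CRISPR cells 11 of 34 were called (32.4%, where 20.1% of all genes were called), 4 higher (11.8%, against 9.19%) and 7 lower (20.6%, against 10.9%). The share called in Ofd1 CRISPR cells thus lay near the background. The median log2 fold change was -0.02 in Ofd1 CRISPR and 0.03 in Kif3a CRISPR, beside 0.00 and 0.01 over all tested genes; with library totals as the scale it was 0.01 in Ofd1 CRISPR, beside 0.04 over all tested genes. Both comparisons use the same GFP control libraries, so likeness between them is not independent evidence. Whether libraries overlap between groups is given as description only. The share of all tested genes without such overlap was not counted. Without GFP-1, 3 genes were called in each comparison, Herpud1 and Atf6 lower and Pdia5 higher, where 5.09% of all genes were called in Ofd1 CRISPR and 8.43% in Kif3a CRISPR. In bulk RNA, fewer cells of a type and less RNA per cell cannot be told apart.

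**Figure D2:**
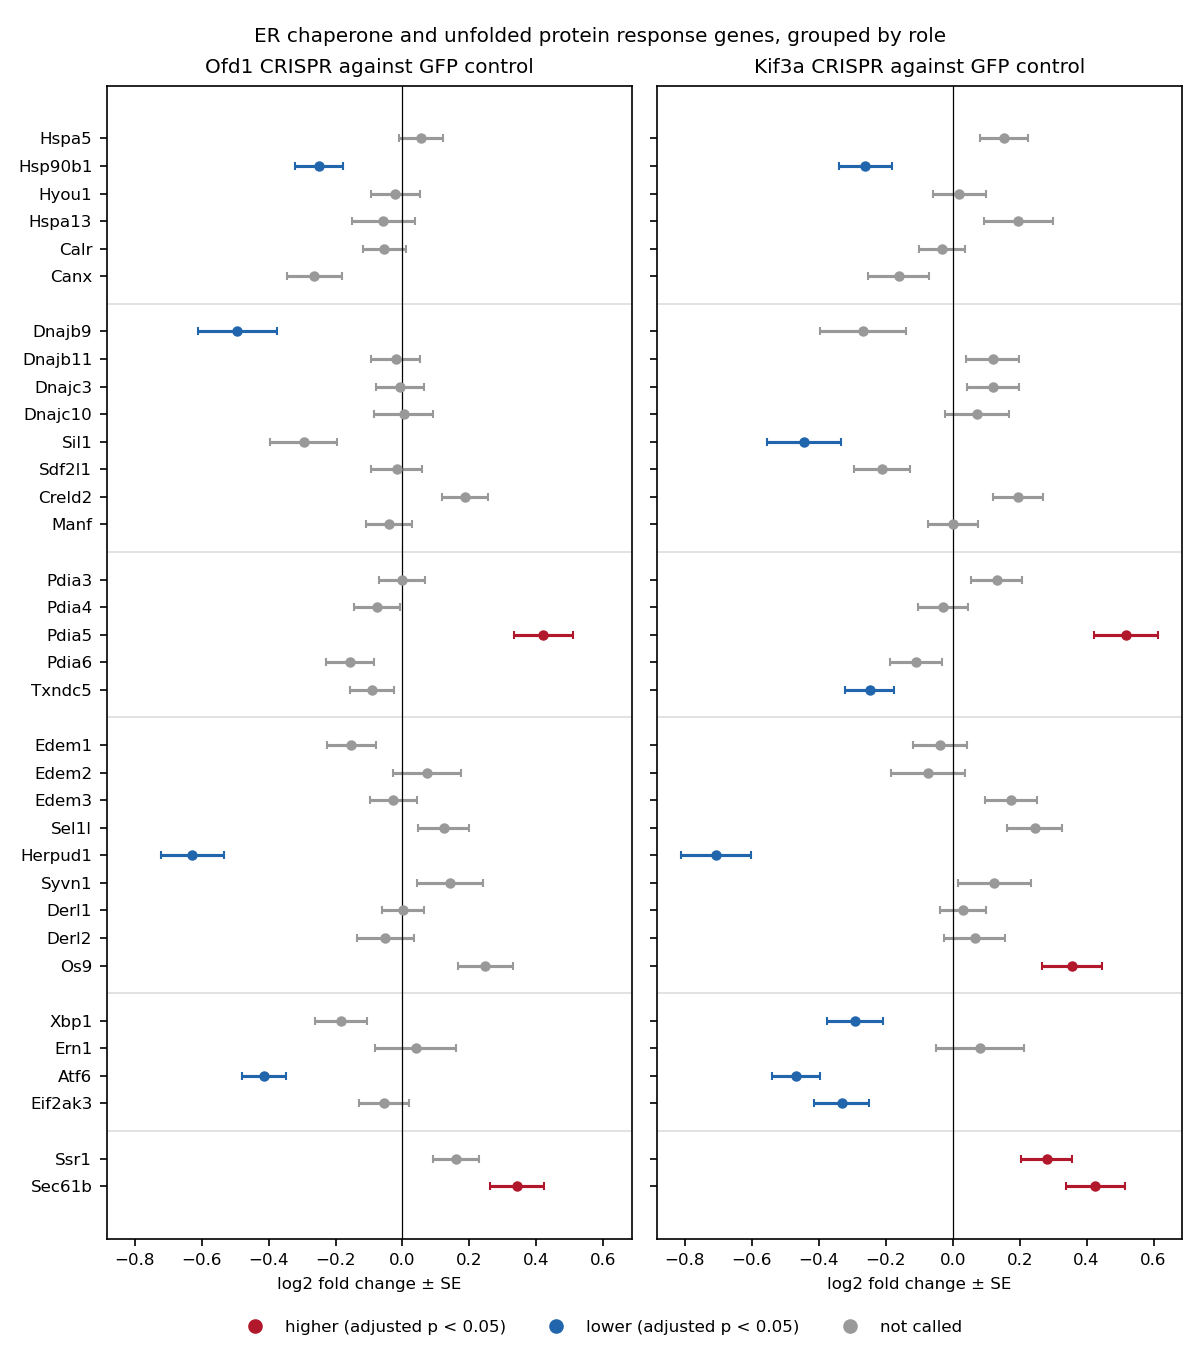
Log2 fold change with its SE (bars) for each of the 34 tested genes, in Ofd1 CRISPR against GFP control (left) and Kif3a CRISPR against GFP control (right), grouped by role from chaperones at the top to the translocon at the bottom. Herpud1 lies lowest in both panels, at -0.63 and -0.71, and Pdia5 highest, at 0.42 and 0.52, while Hspa5 and Calr lie near 0.

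Among the stress sensors and Xbp1, Atf6 was lower in both CRISPR groups, and Xbp1 and Eif2ak3 were called lower in Kif3a CRISPR cells, while Ern1 was not called. Atf6, the membrane-bound precursor of the ATF6 transcription factor, stood at 124, 125 and 131 CPM in Ofd1 CRISPR, 124 and 119.5 CPM in Kif3a CRISPR and 163 and 175 CPM in GFP control cells. All 5 CRISPR libraries lay below both GFP control libraries. It fell by 0.41 on the log2 scale in Ofd1 CRISPR (SE 0.0649, adjusted p = 0.00197) and by 0.47 in Kif3a CRISPR (SE 0.0718, adjusted p = 0.00102), and kept both calls under all 14 alternative settings, with adjusted p = 0.0138 and 0.00648 without GFP-1. Xbp1, whose spliced and unspliced messages counts per gene do not separate, stood at 39.4, 37.6 and 35.2 CPM in Ofd1 CRISPR, 34.9 and 34.6 CPM in Kif3a CRISPR and 42.1 and 42.9 CPM in GFP control cells. The CRISPR libraries did not overlap with GFP control, yet the difference was called in Kif3a CRISPR, at -0.29 (SE 0.0842, adjusted p = 0.0308), and not in Ofd1 CRISPR, at -0.18 (SE 0.0765, adjusted p = 0.128).

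Eif2ak3, which encodes the kinase PERK, stood at 43.0, 41.5 and 39.3 CPM in Ofd1 CRISPR, 33.8 and 34.3 CPM in Kif3a CRISPR and 43.9 and 41.8 CPM in GFP control cells. Its Kif3a CRISPR libraries were the lowest, and its Ofd1 CRISPR libraries overlapped with GFP control. It fell by 0.33 in Kif3a CRISPR (SE 0.0824, adjusted p = 0.0155) and differed by -0.05 in Ofd1 CRISPR (SE 0.0746, adjusted p = 0.66). Ern1, which encodes the kinase and RNase IRE1, stood at 10.99, 12.4 and 12.4 CPM in Ofd1 CRISPR, 12.3 and 12.3 CPM in Kif3a CRISPR and 10.8 and 12.5 CPM in GFP control cells, with overlapping groups. Its log2 fold changes were 0.04 (95% interval -0.23 to 0.30) in Ofd1 CRISPR and 0.08 (-0.21 to 0.37) in Kif3a CRISPR. In Kif3a CRISPR the Xbp1 call was lost without GFP-1 (adjusted p = 0.145) or GFP-2 (0.173) and without Kif3a-1 (0.144) or Kif3a-2 (0.0982), and with DESeq2 (0.0711). The Eif2ak3 call was lost without GFP-1 (0.148) or GFP-2 (0.0655) and without Kif3a-1 (0.112) or Kif3a-2 (0.0538).

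Of the 6 major chaperones, Hsp90b1 was called lower in both comparisons and the other 5 were not called. That is 16.7% in each, where 8.09% of all tested genes were called lower in Ofd1 CRISPR and 10.9% in Kif3a CRISPR. Hspa5, the Hsp70 of the ER and the usual reporter of the response, stood at 315, 344 and 333 CPM in Ofd1 CRISPR, 362 and 345 CPM in Kif3a CRISPR and 316 and 319.8 CPM in GFP control cells. The Ofd1 CRISPR libraries overlapped with GFP control, and the Kif3a CRISPR libraries lay just above it. Its log2 fold changes were 0.06 (95% interval -0.09 to 0.20, adjusted p = 0.605) and 0.15 (-0.01 to 0.31, adjusted p = 0.162). Hsp90b1 stood at 384, 423 and 436 CPM in Ofd1 CRISPR, 423 and 399 CPM in Kif3a CRISPR and 489 and 497 CPM in GFP control cells. All CRISPR libraries lay below GFP control, and the fitted level was lower by 15.9% in Ofd1 CRISPR and 16.6% in Kif3a CRISPR (log2 fold change -0.25, SE 0.0716, adjusted p = 0.0362; -0.26, SE 0.0789, adjusted p = 0.0366). Both Hsp90b1 calls sat near the threshold. In Ofd1 CRISPR it was lost without GFP-1 (adjusted p = 0.179) or GFP-2 (0.225), Ofd1-1 (0.0872) or Ofd1-2 (0.0711), and Kif3a-1 (0.0549) or Kif3a-2 (0.0542), and with library totals as the scale (0.0551). In Kif3a CRISPR it was lost without GFP-1 (0.157) or GFP-2 (0.184), Ofd1-2 (0.0529), and Kif3a-1 (0.117) or Kif3a-2 (0.159), and with library totals (0.0520). Calr and Canx, the lectins that hold glycoproteins during folding, had log2 fold changes of -0.05 and -0.26 in Ofd1 CRISPR and -0.03 and -0.16 in Kif3a CRISPR, none called. Canx in Ofd1 CRISPR lay at the threshold (adjusted p = 0.0515) and was called lower under 6 of 14 alternatives: DESeq2 (0.0143), RLE factors (0.0475), no filter (0.0311), at least 1 CPM in 2 libraries (0.0476), a replicate block (0.00798) and without Ofd1-3 (0.0169). The Hsp70 family members Hyou1 and Hspa13 differed by -0.02 and -0.06 in Ofd1 CRISPR and by 0.02 and 0.20 in Kif3a CRISPR and were not called. Summed over the 6 chaperones, the level was 1579 to 1713 CPM in Ofd1 CRISPR, 1694 to 1778 in Kif3a CRISPR and 1804 to 1829 in GFP control cells.

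**Figure D3:**
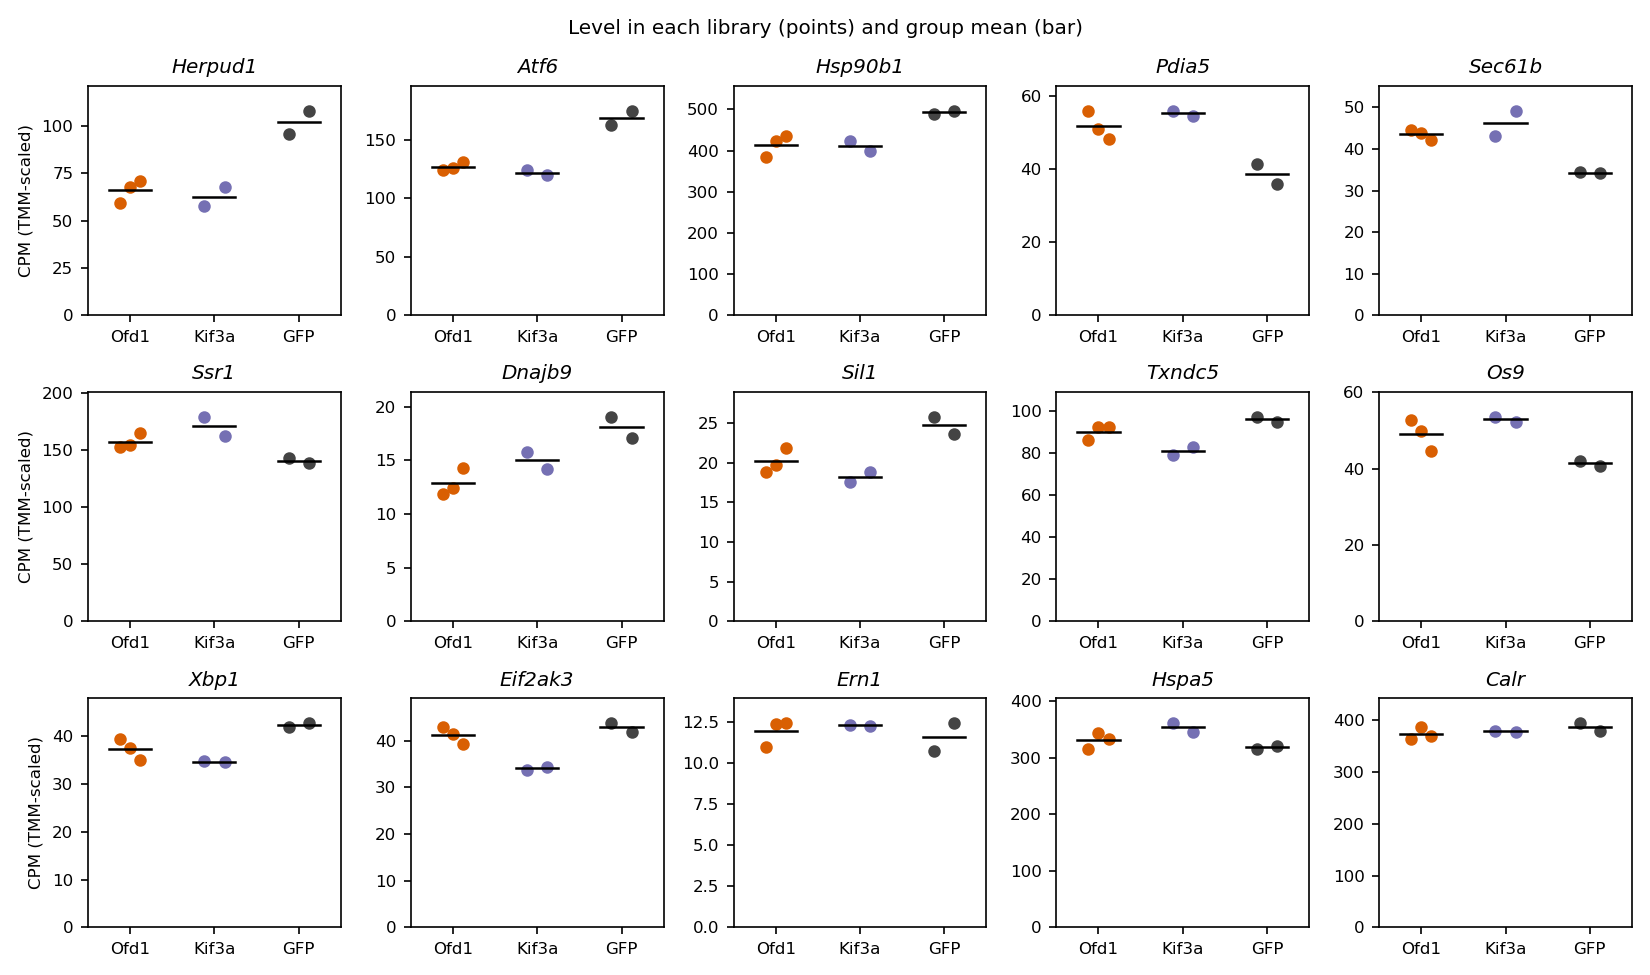
Level in CPM of 15 genes in every library (points) with the group mean (bar), for Ofd1 CRISPR, Kif3a CRISPR and GFP control. In Ern1 and Calr the libraries of both CRISPR groups overlap with GFP control. In Eif2ak3 and Hspa5 only the Ofd1 CRISPR libraries do. The Kif3a CRISPR libraries lie below GFP control for Eif2ak3 and above it for Hspa5. The other genes drawn were each called in at least 1 comparison with GFP control, a choice that favours separation. In each of them all CRISPR libraries lie on the same side of both GFP control libraries.

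Of 8 co-chaperones and secreted stress proteins, 1 was called lower in each comparison, Dnajb9 in Ofd1 CRISPR and Sil1 in Kif3a CRISPR. That is 12.5%, near the 8.09% and 10.9% of all tested genes called lower in Ofd1 CRISPR and Kif3a CRISPR. Dnajb9 (ERdj4), a J protein that recruits Hspa5 to IRE1 and to misfolded clients, stood at 11.8, 12.5 and 14.2 CPM in Ofd1 CRISPR, 15.8 and 14.2 CPM in Kif3a CRISPR and 19.1 and 17.1 CPM in GFP control cells. The groups did not overlap with GFP control, and the Ofd1 CRISPR libraries were the lowest on average. It fell by 0.49 in Ofd1 CRISPR (SE 0.118, adjusted p = 0.0169) and differed by -0.27 in Kif3a CRISPR (SE 0.128, adjusted p = 0.166); the Ofd1 CRISPR call was lost without GFP-1 (0.170). Sil1, a nucleotide exchange factor of Hspa5, stood at 18.9, 19.8 and 21.8 CPM in Ofd1 CRISPR, 17.6 and 18.8 CPM in Kif3a CRISPR and 25.8 and 23.7 CPM in GFP control cells. Every CRISPR library was below GFP control. It fell by 0.44 in Kif3a CRISPR (SE 0.110, adjusted p = 0.0155), a call lost without GFP-1 (0.142) or Kif3a-1 (0.137), and differed by -0.29 in Ofd1 CRISPR (SE 0.0999, adjusted p = 0.0683), where it was called without Ofd1-3 (0.0305). The other 6 were not called in either comparison. Creld2, an ER stress-induced secreted protein, had 0.19 and 0.20 (adjusted p = 0.0899 and 0.0883), and Manf, a secreted protein induced by ER stress, -0.04 and 0.00, in Ofd1 CRISPR and Kif3a CRISPR. The J proteins Dnajb11, Dnajc3 and Dnajc10 and the stress-induced Sdf2l1 ranged from -0.21 (Sdf2l1 in Kif3a CRISPR, adjusted p = 0.0967) to 0.12 (Dnajc3 in Kif3a CRISPR).

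The disulfide isomerases split, with Pdia5 higher in both CRISPR groups. Pdia5, a disulfide isomerase that also acts on disulfides of ATF6, stood at 55.8, 50.7 and 48.1 CPM in Ofd1 CRISPR, 55.9 and 54.4 CPM in Kif3a CRISPR and 41.2 and 35.9 CPM in GFP control cells. All CRISPR libraries were above both GFP control libraries. It rose by 0.42 in Ofd1 CRISPR (SE 0.0888, adjusted p = 0.00936) and by 0.52 in Kif3a CRISPR (SE 0.0959, adjusted p = 0.00315). The call in Kif3a CRISPR was kept under all 14 alternatives, and that in Ofd1 CRISPR was lost without GFP-2 (0.138); without GFP-1 the values were 0.0265 in Ofd1 CRISPR and 0.00926 in Kif3a CRISPR. Txndc5, an isomerase with thioredoxin domains, stood at 86.5, 92.5 and 92.4 CPM in Ofd1 CRISPR, 79.3 and 83.0 CPM in Kif3a CRISPR and 97.6 and 95.1 CPM in GFP control cells, with the CRISPR libraries below GFP control. It fell by 0.25 in Kif3a CRISPR (SE 0.0735, adjusted p = 0.0341) and differed by -0.09 in Ofd1 CRISPR (SE 0.0669, adjusted p = 0.385). The Txndc5 call was lost without GFP-1 (0.214) or GFP-2 (0.138), Ofd1-2 (0.0501), and Kif3a-1 (0.208) or Kif3a-2 (0.0689), and with library totals (0.0520). Pdia3, which works on glycoproteins with the lectin chaperones, and Pdia4 and Pdia6 ranged from -0.16 (Pdia6 in Ofd1 CRISPR) to 0.13 (Pdia3 in Kif3a CRISPR) and were not called.

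Of the 10 ERAD genes, 9 were tested, and Herpud1 had the largest difference of all 34 genes in both comparisons. Herpud1, a membrane protein that assembles the degradation complex, stood at 59.6, 68.0 and 70.8 CPM in Ofd1 CRISPR, 57.7 and 67.6 CPM in Kif3a CRISPR and 96.1 and 108 CPM in GFP control cells. Group means were 66.1 ± 5.83 CPM (SD, n = 3) in Ofd1 CRISPR, 62.7 ± 6.99 CPM (SD, n = 2) in Kif3a CRISPR and 102 ± 8.60 CPM (SD, n = 2) in GFP control cells, and no CRISPR library reached GFP control. It fell by 0.63 on the log2 scale in Ofd1 CRISPR (SE 0.0945, adjusted p = 0.00156) and by 0.71 in Kif3a CRISPR (SE 0.105, adjusted p = 0.000874), that is by 35.3% and 38.7%. Both calls were kept under all 14 alternatives, and without GFP-1 the adjusted p was 0.00596 and 0.00281. The promoter of Herpud1 is the one printed above with an ERSE-II and an ATF4 composite match.

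No other ERAD gene was called lower, and Os9 was called higher in Kif3a CRISPR. Of the 9 tested, 11.1% were thus called lower in each comparison, where 8.09% (Ofd1 CRISPR) and 10.9% (Kif3a CRISPR) of all tested genes were. In Kif3a CRISPR 11.1% were called higher, where 9.19% of all tested genes were. Os9, a lectin that hands misfolded glycoproteins to the ubiquitin ligase, stood at 52.8, 50.02 and 44.8 CPM in Ofd1 CRISPR, 53.7 and 52.3 CPM in Kif3a CRISPR and 42.1 and 40.7 CPM in GFP control cells. All CRISPR libraries were above GFP control. It rose by 0.36 in Kif3a CRISPR (SE 0.0898, adjusted p = 0.0165) and differed by 0.25 in Ofd1 CRISPR (SE 0.0828, adjusted p = 0.065). Its call was lost without GFP-1 (0.0897) or GFP-2 (0.119), and Kif3a-1 (0.117) or Kif3a-2 (0.0571), and in Ofd1 CRISPR it was called without Ofd1-3 (0.0135). The ubiquitin ligase Syvn1 (HRD1) and its partner Sel1l had log2 fold changes of 0.14 and 0.12 in Ofd1 CRISPR and 0.12 and 0.24 in Kif3a CRISPR, and were not called (adjusted p = 0.0574 for Sel1l in Kif3a CRISPR); without Ofd1-3, Syvn1 was called higher in Ofd1 CRISPR (0.0217). The mannosidase-like proteins Edem1, Edem2 and Edem3 and the derlins Derl1 and Derl2 ranged from -0.15 (Edem1 in Ofd1 CRISPR) to 0.18 (Edem3 in Kif3a CRISPR), none called. Over the 9 genes tested the median was 0.00 in Ofd1 CRISPR and 0.07 in Kif3a CRISPR.

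Of the 2 translocon genes followed here, Sec61b was called higher in both comparisons and Ssr1 in Kif3a CRISPR. A further list of 22 tested translocon and signal processing genes leaned lower by sign, with few called. In Ofd1 CRISPR 0 were called higher and 3 lower (Ssr3, Serp1, Stt3a), 13.6% where 8.09% of all tested genes were called lower. Log2 fold changes of the 22 lay below 0 for 19 and above 0 for 3 (median -0.14). Over all tested genes 6372 lay below 0 and 6503 above. In Kif3a CRISPR 0 were called higher and 2 lower (Stt3a, Rpn2), 9.09% where 10.9% of all tested genes were called lower. Of the 22, 16 lay below 0 and 6 above (median -0.06), against 6266 and 6609 over all tested genes. How the calls in that list held is given below. Sec61b, the beta subunit of the channel through which new chains enter the ER, stood at 44.6, 43.7 and 42.1 CPM in Ofd1 CRISPR, 43.1 and 49.2 CPM in Kif3a CRISPR and 34.4 and 34.2 CPM in GFP control cells. No CRISPR library overlapped with GFP control. It rose by 0.34 in Ofd1 CRISPR (SE 0.0810, adjusted p = 0.0161) and by 0.43 in Kif3a CRISPR (SE 0.0876, adjusted p = 0.00584). The first of these calls was lost without GFP-1 (0.124) or GFP-2 (0.127), and that in Kif3a CRISPR without GFP-1 (0.0536). Ssr1, a subunit of the translocon-associated protein complex, stood at 153, 154 and 165 CPM in Ofd1 CRISPR, 179.7 and 163 CPM in Kif3a CRISPR and 143 and 139 CPM in GFP control cells, again with all CRISPR libraries above GFP control. It rose by 0.28 in Kif3a CRISPR (SE 0.0760, adjusted p = 0.0233) and differed by 0.16 in Ofd1 CRISPR (SE 0.0698, adjusted p = 0.144). The Ssr1 call was lost without GFP-1 (0.112) or GFP-2 (0.157), or Kif3a-1 (0.183).

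Sorted by branch, few genes were called. Each count is read against 6.79% of all tested genes called higher and 8.09% lower in Ofd1 CRISPR, and 9.19% and 10.9% in Kif3a CRISPR. Of 10 genes of the IRE1/XBP1 branch (Ern1, Xbp1, Dnajb9, Edem1, Dnajc3, Dnajb11, Derl2, Hspa13, Ssr1 and Sec61b), 1 was called higher (Sec61b) and 1 lower (Dnajb9) in Ofd1 CRISPR, and 2 higher (Ssr1, Sec61b) and 1 lower (Xbp1) in Kif3a CRISPR. That is 10% in each direction in Ofd1 CRISPR, near the shares over all genes, and 20% and 10% in Kif3a CRISPR; without GFP-1, 0 of the 10 were called in either comparison. Their median log2 fold change was -0.04 in Ofd1 CRISPR and 0.10 in Kif3a CRISPR. Of 11 tested genes of the ATF6 branch (Atf6, Hspa5, Hsp90b1, Calr, Pdia4, Hyou1, Creld2, Manf, Sdf2l1, Sel1l and Herpud1), 0 were called higher and 3 lower (Atf6, Hsp90b1, Herpud1; 27.3%) in each comparison, with medians of -0.04 and -0.03; without GFP-1, Atf6 and Herpud1 were called lower. Beside the 0 calls upward stood Creld2, at an unadjusted p under 0.05 in both comparisons, and Sel1l, in Kif3a CRISPR, and DESeq2 called 0 higher in either. Sel1l was called higher in Kif3a CRISPR under 5 of 14 alternatives: library totals (0.0381), only the compared groups (0.0276), a replicate block (0.0249), and without Ofd1-1 (0.0319) or Ofd1-3 (0.0451). Hspa5, Calr, Pdia4 and Hyou1 were not called in either comparison. Grouped by promoter, 1 of the 8 tested genes with an ERSE was called lower in each comparison (Hsp90b1, 12.5%, a call lost without GFP-1) and 0 higher. Of the 2 genes with an ERSE-II, Herpud1 was called lower in each comparison. Of the 18 genes with a promoter window but neither ERSE nor ERSE-II, 2 were called higher (11.1%) and 1 lower (5.56%) in Ofd1 CRISPR. In Kif3a CRISPR 4 were called higher (22.2%) and 3 lower (16.7%), and the groups by promoter were not tested against each other. Only exact matches within the window were counted, so a variant or more distant element would be missed. Atf6 and Sil1, called lower above, had no window and fall in neither group.

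The largest differences of the pathway lists lay outside the 35 genes, in the list named here the PERK and ATF4 arm. Whether PERK acts on these genes in these cells was not tested. The wider pathway was taken from 8 lists of 107 further genes, 105 in the table and 103 tested. Of these, 3 were called higher and 23 lower in Ofd1 CRISPR, and 5 higher and 22 lower in Kif3a CRISPR, where 6.79% and 8.09% of all genes were called higher and lower in Ofd1 CRISPR and 9.19% and 10.9% in Kif3a CRISPR. The PERK and ATF4 arm supplied 12 of 14 genes lower in Ofd1 CRISPR (median -1.27) and 13 of 14 in Kif3a CRISPR (median -1.52), which was known from earlier work on these libraries and is no independent support. Atf4 itself, named after its values were seen, stood at 309.7, 391 and 399.9 CPM in Ofd1 CRISPR, 329 and 394 CPM in Kif3a CRISPR and 574 and 631 CPM in GFP control cells, with the CRISPR libraries below GFP control (-0.72, SE 0.110, adjusted p = 0.00174; -0.74, SE 0.122, adjusted p = 0.00169). Atf5, a stress-translated transcription factor, stood at 49.2, 92.4 and 92.8 CPM in Ofd1 CRISPR, 40.6 and 78.1 CPM in Kif3a CRISPR and 456 and 527 CPM in GFP control cells (-2.65, SE 0.257, adjusted p = 0.00022; -3.06, SE 0.304, adjusted p = 7.97e-05). The leucine zipper factor Cebpb fell by 1.53 and 2.25, and Sesn2, a stress-induced inhibitor of mTORC1, by 1.41 and 1.70. The 3 calls for Atf5, Cebpb and Sesn2 were kept in both comparisons under all 14 alternatives. The medians of the IRE1/XBP1, ATF6 and ERAD groups, by contrast, lay between -0.04 and 0.10.

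**Figure D4:**
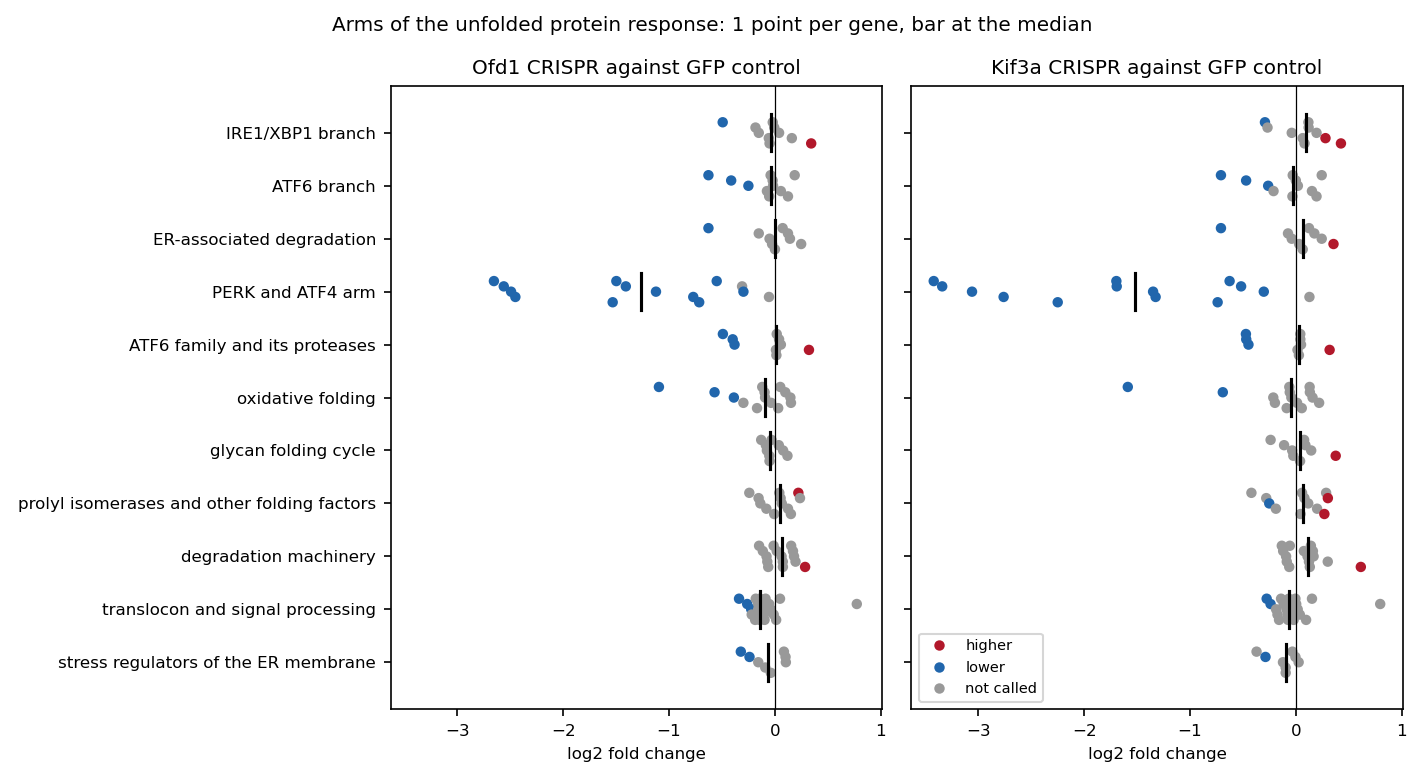
Log2 fold change of each tested gene (points) and the median (bar) in the IRE1/XBP1, ATF6 and ERAD groups and in the 8 lists of other pathway genes, for Ofd1 CRISPR (left) and Kif3a CRISPR (right) against GFP control. The PERK and ATF4 arm lies to the left, with medians of -1.27 and -1.52, and the other groups centre near 0.

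Genes were also called among regulators and redox enzymes around the 35 genes. Among 9 ATF6 relatives, ATF6-processing proteases and NF-Y subunits, 3 were called lower (33.3%, against 8.09% of all genes in Ofd1 CRISPR and 10.9% in Kif3a CRISPR) and 1 higher (11.1%, against 6.79% and 9.19%) in each comparison. Nfya, the subunit of NF-Y that contacts CCAAT, stood at 111, 126 and 117 CPM in Ofd1 CRISPR, 108 and 114 CPM in Kif3a CRISPR and 152 and 155 CPM in GFP control cells, and fell by 0.38 (SE 0.0703, adjusted p = 0.00446) and 0.47 (SE 0.0777, adjusted p = 0.00169) in Ofd1 CRISPR and Kif3a CRISPR. Its partner Nfyb fell by 0.49 (SE 0.0741, adjusted p = 0.00156) and 0.47 (SE 0.0818, adjusted p = 0.00219), and held both calls under all 14 alternatives. The Nfya call in Ofd1 CRISPR was lost without GFP-2 (0.0518). The third subunit, Nfyc, named after its values were seen, was higher by 0.32 and 0.32 (adjusted p = 0.0146 and 0.0168; lost without GFP-1 at 0.206 and 0.199, in Ofd1 CRISPR without GFP-2 at 0.0540, and in Kif3a CRISPR without Kif3a-1 at 0.102 or Kif3a-2 at 0.0537). The protease Mbtps2, which makes the last cut in ATF6, fell by 0.40 and 0.45 (adjusted p = 0.0121 and 0.00837). Its call was lost in Ofd1 CRISPR without GFP-1 (0.1002) or GFP-2 (0.0760), and in Kif3a CRISPR without GFP-1 (0.0624) or Kif3a-1 (0.0572) or Kif3a-2 (0.0716).

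Of 14 tested genes of oxidative folding, 3 were called in Ofd1 CRISPR (21.4%) and 2 in Kif3a CRISPR (14.3%). Over all tested genes the shares were 14.9% and 20.1%. Ero1l, the oxidase that recharges disulfide isomerases, had the largest difference of the 14. It stood at 35.5, 44.7 and 44.9 CPM in Ofd1 CRISPR, 29.7 and 29.6 CPM in Kif3a CRISPR and 91.4 and 86.7 CPM in GFP control cells, the CRISPR libraries lying well below GFP control, and fell by 1.10 in Ofd1 CRISPR (SE 0.0951, adjusted p = 0.000141) and by 1.59 in Kif3a CRISPR (SE 0.109, adjusted p = 1.2e-05). The sulfhydryl oxidase Qsox2 fell by 0.57 and 0.69 (SE 0.0882, adjusted p = 0.00182; SE 0.0980, adjusted p = 0.00068), and both genes kept their calls under all 14 alternatives. Tmx3, a transmembrane isomerase, was the third called gene in Ofd1 CRISPR at -0.39 (adjusted p = 0.0498), a call lost without GFP-1 (0.145) or GFP-2 (0.252), Ofd1-1 (0.111) or Ofd1-2 (0.139), Kif3a-1 (0.0562) or Kif3a-2 (0.0559), and with library totals (0.0673). In the 5 remaining lists the share called ran from 0% to 25% in Ofd1 CRISPR and from 6.67% to 25% in Kif3a CRISPR. Over all tested genes it was 14.9% and 20.1%. Together these lists gave 7 calls in Ofd1 CRISPR and 8 in Kif3a CRISPR. The largest was Vimp (selenoprotein S, an ERAD factor), higher by 0.61 in Kif3a CRISPR (SE 0.0925, adjusted p = 0.000937; kept under all 14 alternatives) and by 0.29 in Ofd1 CRISPR (adjusted p = 0.0457). Also called were the prolyl isomerase Ppib, higher by 0.22 and 0.27, the oligosaccharyltransferase subunit Stt3a, lower at -0.22 and -0.24, and the ER membrane protein Tmbim6, a cell death suppressor, at -0.24 and -0.29, in Ofd1 CRISPR and Kif3a CRISPR. In Ofd1 CRISPR alone the calls were Serp1 (-0.34), Ssr3 (-0.26) and Tmem33 (-0.32), and in Kif3a CRISPR alone Uggt2 (0.38), Fkbp10 (0.30), Cnpy3 (-0.25) and Rpn2 (-0.28), with the difference between the comparisons not called for any of them. Except for Vimp in Kif3a CRISPR, each call in these 5 lists was lost without GFP-1 and without at least 1 other library. Several were also lost by method. In Ofd1 CRISPR, Vimp, Ppib, Serp1, Ssr3 and Stt3a were lost with only the compared groups (adjusted p = 0.0505 to 0.0648). Vimp there was also lost with DESeq2 (0.116), and Ssr3 and Stt3a with library totals (0.0695 and 0.0747). In Kif3a CRISPR, DESeq2 lost Fkbp10 and Cnpy3 (0.0780 and 0.0800), and library totals lost Stt3a, Rpn2 and Cnpy3 (0.0595 to 0.0711).

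Set against each other, Ofd1 CRISPR and Kif3a CRISPR cells had few called genes of any kind, and these genes were no exception. None of them was called in edgeR's test, 0 of 34, where 0.179% of all tested genes were called (0.171% higher and 0.00777% lower). By DESeq2 the count was also 0, and 5 genes had an unadjusted p under 0.05. Log2 fold changes ran from -0.25 for Hspa13 to 0.28 for Eif2ak3, and their 95% intervals from -0.49 to 0.44. Eif2ak3 came nearest to separating the groups, at 43.0, 41.5 and 39.3 CPM in Ofd1 CRISPR against 33.8 and 34.3 CPM in Kif3a CRISPR (95% interval 0.11 to 0.44, adjusted p = 0.254). Its groups did not overlap, but the difference did not pass. The other genes under an unadjusted p of 0.05 were Hspa13 (-0.25), Edem3 (-0.20), Sdf2l1 (0.19) and Txndc5 (0.16). Their CRISPR groups did not overlap either, and with a replicate block edgeR called Hspa13 lower in Ofd1 CRISPR (adjusted p = 0.0365). That Xbp1, Sil1, Txndc5, Os9, Eif2ak3 and Ssr1 were called only in Kif3a CRISPR, and Dnajb9 only in Ofd1 CRISPR, therefore does not show that the CRISPR groups differ in them. Of the 103 other pathway genes 0 were called, with 13 at an unadjusted p under 0.05 and 2 called by DESeq2, Cebpb (0.0141) and Ero1l (0.0114), both higher in Ofd1 CRISPR. Without Ofd1-1 edgeR called Ero1l as well (0.00321).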

How the data were processed

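RNA of SMB21 cells was measured by stranded mRNA sequencing in 7 libraries. The deposited table holds raw counts per gene symbol without normalization; per the submitters' processing notes STAR, DESeq2 and mm9 were used. Which counter, gene models and strand setting were used is not given in the sources used here. Overlapping or antisense genes and near-identical copies could therefore share reads. Of 24047 genes, 12875 passed edgeR's filterByExpr and held 99.96% of counts. One edgeR 4.0.16 quasi-likelihood model (R 4.3.3, TMM factors, 1 mean per group, all 7 libraries, 4 residual degrees of freedom) gave log2 fold changes with SE from the F statistic and Benjamini-Hochberg adjusted p-values over 12875 genes; the common biological coefficient of variation was 7.43%. The script was tested on simulated data. Levels are TMM-scaled CPM, and per kilobase CPM divided by GENCODE M21 exon length. The floor of 3 counts covers counting error only, as reads carry no molecular identifiers; the 95% intervals of fold changes come from the fit and carry the spread between libraries. The alternatives were RLE factors, library totals, no filter, at least 1 CPM in 2 libraries, DESeq2 1.42.0, only the compared groups, a replicate block and leaving out each library. For Ofd1 CRISPR the block also sets Ofd1-3 aside, as no other group has that replicate number.

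The genes and lists were chosen with earlier results of these data known. Library values were given for members called in any comparison, the 4 sensors and Hspa5; from the other lists, up to 3 called genes per list and comparison with the smallest adjusted p were named. No libraries were duplicates by a chi-square of their counts. Promoters are RefSeq, GRCm38.p6; that build served for promoters, names and lengths only.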

Additional observations from a re-analysis of the deposited data

How the results depend on the processing

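Over 14 alternatives, 168 gene results kept their side of the threshold and direction in 2165 of 2352 cases, lost a call in 141, gained one in 37 and reversed a called value in 0; in 9 cases an uncalled value changed sign and moved by more than its SE. Most losses fell in the settings that left GFP control or Kif3a CRISPR with 1 library, where the lone library is assumed to vary like the other groups. Without 1 library, all genes called ran from 664 to 2831 in Ofd1 CRISPR and from 686 to 3119 in Kif3a CRISPR, and from 0 to 50 between them. Over the same settings the ER genes called higher ran from 0 to 4 and lower from 2 to 6 in Ofd1 CRISPR, and from 1 to 5 and from 2 to 7 in Kif3a CRISPR. The other pathway genes called ran from 12 to 34, from 14 to 30 and, between the CRISPR groups, from 0 to 1. Between the CRISPR groups, all genes called were 80 without a filter and 86 by DESeq2, against 23, and the other pathway genes called were 2 and 2. With library totals alone, 57.5% of calls in Ofd1 CRISPR and 54.3% in Kif3a CRISPR were higher, against 45.6% and 45.8% with TMM. With a replicate block, all genes called were 3496 in Ofd1 CRISPR, 3575 in Kif3a CRISPR and 191 between the CRISPR groups; the ER genes called higher in Ofd1 CRISPR were 4, 1 (Hspa13, adjusted p = 0.0365) was lower in Ofd1 CRISPR than in Kif3a CRISPR, and 5 other pathway genes differed between the CRISPR groups. The labels say nothing of what a number shares, and only 2 numbers recur in all groups. Correlations of same-numbered deviations ran from -0.00857 to 0.234. In groups of 2 libraries the deviations mirror each other, so the correlations cannot show whether samples share more than a number. Replicate 3 exists only in Ofd1 CRISPR, so the block takes Ofd1-3 out of the fitted differences. Canx in Ofd1 CRISPR stood at -0.325 with the block and at -0.324 without Ofd1-3. For Ofd1 CRISPR these 2 settings are therefore not separate checks. Other causes of the shifts in this section were not tested. Depth limits low genes most: Ern1 and Dnajb9, with the lowest CPM of the tested ER genes, had the widest SE.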
